A study of Mus musculus with 6 samples.

Results

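The IL-1 cytokine family and its receptors were followed in fibroblasts from the mouse synovium, the lining tissue of the joint, with Il1rl1, the gene of the IL-33 receptor ST2, at the centre. The 10 symbols sought were Il1rl1, Il33, Il1rap, Il1r1, Il1r2, Il1rl2, Il1a, Il1b, Il1rn and Il18, and each was taken as the row of that symbol in the count table. Of the 24348 genes in the table, 7 were members, and Il1a, Il1b and Il1rn had no row and were not analysed here. The family was chosen by the fold change of Il1rl1 after treatment in these same libraries, so the values of the members after IC and vehicle, and how many of them passed a threshold, are a description and no p-value is given for a member.

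RNA sequencing was performed on fibroblasts sorted by flow cytometry from collagenase-digested synovium of adult wild-type C57BL/6 mice, with 3 libraries per group. The IC group had received immune complexes, made from ovalbumin and rabbit polyclonal antibody against it, into a tail vein, and the vehicle group had received the control injection. The time from injection to collection and the surface markers of the fibroblast gate are not given in the sources used here. It is also not stated whether each library came from 1 mouse, so the spread between libraries may be partly technical, and p-values measure only that spread. Counts were divided by library size factors, giving normalized counts, and total counts ranged from 40114331 to 56714304. Within a group, libraries were not duplicates of each other: pairwise chi-square values divided by their degrees of freedom were 13.8 to 63.3 across 16854 genes, where sampling alone would give values near 1. All 10 fibroblast markers examined, such as Col1a1 and Pdgfra, were in the table, and together they held 44600 to 46300 CPM (counts scaled to the library total) after IC and 45500 to 55300 after vehicle. This sum was mostly collagen transcript, and DESeq2 called 3 of the 10 markers, against 2.10% of all genes tested. The 3 were named after their values were seen. Prg4, which encodes lubricin and marks the lining layer, was higher after IC by 0.94 ± 0.248 (SE) on the log2 scale, while the matrix genes Col3a1 and Lum were lower, at -0.38 ± 0.0961 and -0.36 ± 0.0859.

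IL-33 is stored in the nucleus of stromal and barrier cells and acts as an alarm signal once it is released from damaged or stretched cells. It binds ST2, which then recruits IL1RAP, the co-receptor shared with IL-1 and IL-36 receptors, and passes the signal through MYD88, IRAK kinases and TRAF6 to NF-kB and MAP kinases. A secreted short form of ST2 lacks the membrane anchor and traps IL-33, and the decoy receptor encoded by Il1r2 does the same for IL-1. In joints, synovial fibroblasts respond to IL-1 with IL-6, chemokines, prostaglandins and hyaluronan.

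Il1rl1 lies on the plus strand of chromosome 1, from 40429570 to 40465415 on GRCm38, and its GENCODE model holds 5 coding transcripts of 375 to 5302 exonic bases. One of them, with 2661 exonic bases, ends at 40448148, before the end of the longest form, and counts per gene do not separate them. The gene has a distal start, known for its use in mast cells, and a proximal start, known for its use in fibroblasts, and the RefSeq promoter windows for both are shown because the counts do not tell which start was in use. The starts are 10059 bases apart. The windows are the 250 bases before each start on GRCm38.p6, at chr1:40429320-40429569 and chr1:40439379-40439628, plus strand, 5′ to 3′, and capitals mark matches to the motifs searched.
Il1rl1 distal window: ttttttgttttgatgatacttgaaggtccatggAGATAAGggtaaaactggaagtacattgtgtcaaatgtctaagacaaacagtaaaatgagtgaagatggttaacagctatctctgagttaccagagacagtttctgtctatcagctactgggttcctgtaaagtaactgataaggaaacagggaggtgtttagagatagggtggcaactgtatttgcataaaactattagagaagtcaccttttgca
Il1rl1 proximal window: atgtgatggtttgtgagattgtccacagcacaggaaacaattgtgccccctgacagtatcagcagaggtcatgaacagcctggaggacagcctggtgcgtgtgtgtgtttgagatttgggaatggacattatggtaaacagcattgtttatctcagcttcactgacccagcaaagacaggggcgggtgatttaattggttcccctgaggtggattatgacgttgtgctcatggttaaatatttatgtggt

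The distal window had a GC content of 37.6% and held 1 match to the GATA motif AGATAAG, 217 bases before the start. Of 32851 RefSeq windows of the same length, 2.74% held this motif on either strand. The proximal window had a GC content of 46.4% and held no match to any of the 7 motifs searched. Those were TGANTCA for AP-1, TTCNNNGAA for the STAT factors, TGACGTCA for the CREB factors, TATAAA for the core promoter box, AGATAAG for the GATA factors, the ISRE core and the NF-kB motif. They were found on either strand in 6.75%, 7.02%, 1.55%, 12.4%, 2.74%, 2.98% and 7.25% of all windows. A match describes the letters only.

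Il1rl1 was low in all vehicle libraries and higher, by widely different amounts, in all IC libraries. Its normalized counts were 38.54, 116.2 and 37.69 in vehicle replicates 1, 2 and 3, and 197.2, 2597 and 1630 in IC replicates 1, 2 and 3. The groups did not overlap, but the lowest IC library was only 1.7 times the highest vehicle library, whereas IC replicate 2 stood 13.2 times above IC replicate 1. The IC mean of 1475 ± 1208 was 23.0 times the vehicle mean of 64.14 ± 45.08 (SD, n = 3 in each group). On the log2 scale the difference fitted by DESeq2 was 4.52 ± 1.03 (SE). It ranged from 3.83 without IC replicate 2 to 5.28 without vehicle replicate 2, and was 5.04 without IC replicate 1.

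The raw reads behind these values were 179, 2513 and 1819 in IC replicates 1 to 3 and 47, 123 and 31 in vehicle replicates 1 to 3, so Il1rl1 was detected in every library. Its share of the reads thus followed the same order, from 0.773 CPM in vehicle replicate 3 to 54.7 in IC replicate 2. Among the 13435 genes whose mean reached 100 normalized counts, 11 other genes had IC libraries that differed by at least as large a factor as those of Il1rl1. The median gene had a highest IC library 1.18 times its lowest. In the vehicle group the corresponding factor for Il1rl1 was 3.08, and 162 other genes reached it. In these bulk libraries, more cells that carry the transcript and more transcript per cell cannot be told apart.

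**Figure D1:**
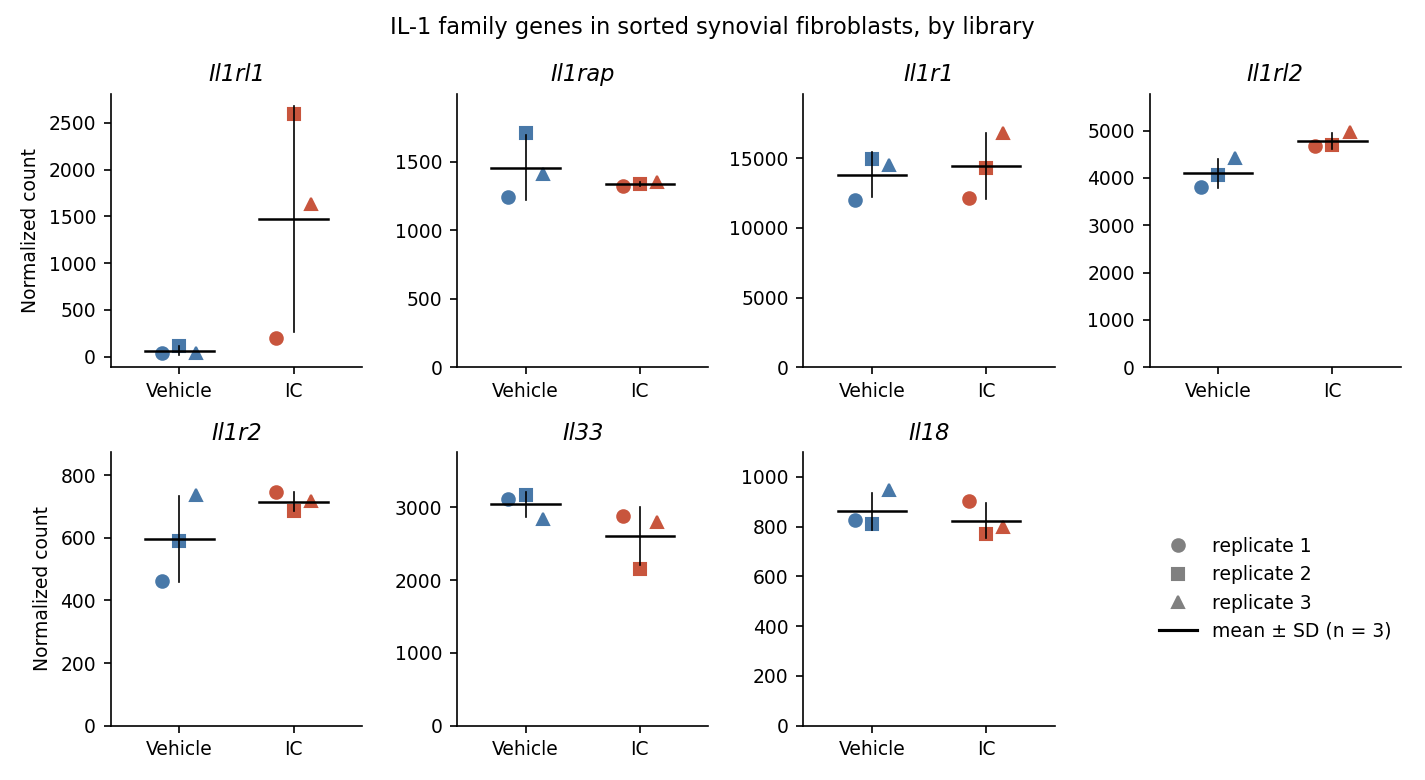
Normalized counts (linear axes from 0) of the 7 IL-1 family genes in the 3 vehicle (blue) and 3 IC (red) libraries. Symbols mark the replicate, the horizontal line is the mean and the vertical line 1 SD; Il1rl1 spans 197.2 to 2597 after IC and 37.69 to 116.2 after vehicle, while 5 of the other members overlap between groups.

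Il1rap, the co-receptor that ST2 needs for signalling, was expressed at nearly the same level in all IC libraries. Its normalized counts were 1325, 1337 and 1353 after IC and 1246, 1713 and 1408 after vehicle. The groups overlapped, with vehicle replicate 2 highest, and the log2 difference was -0.12 ± 0.134 (SE), ranging from -0.22 to 0.02 with each library left out. Some exons of Il1rap overlap Gm20319 on the other strand, and the use of strand in counting is not stated.

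Because levels of different genes can be compared only per length, normalized counts were divided by the exonic length of each gene. Per kilobase, Il1rl1 amounted to 5.1%, 11.2% and 4.41% of Il1rap in vehicle replicates 1, 2 and 3. The share was 24.5% in IC replicate 1, 320% in IC replicate 2 and 199% in IC replicate 3. Thus ST2 transcript was below that of its co-receptor in 4 libraries and above it in IC replicates 2 and 3. With the longest transcript as the length, the same shares were 2.64%, 5.78% and 2.28% after vehicle and 12.7%, 166% and 103% after IC.

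Il1r1, the signalling receptor for IL-1α and IL-1β, was the most abundant family member per length in both groups. Its normalized counts were 12150, 14335 and 16847 after IC and 11988, 14963 and 14525 after vehicle. The groups overlapped, and the log2 difference was 0.06 ± 0.115 (SE), ranging from -0.06 to 0.17 with each library left out.

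Il1rl2, which encodes the receptor for IL-36 cytokines, was the other member whose groups did not overlap. It had 4674, 4699 and 4970 normalized counts after IC and 3802, 4053 and 4425 after vehicle. The means were 4781 ± 164 and 4093 ± 313.2 (SD, n = 3 each), and the log2 difference was 0.22 ± 0.0898 (SE), ranging from 0.17 to 0.28 with each library left out. The difference was thus a small fraction of that of Il1rl1, but the spread among libraries was also much narrower.

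Il1r2, the decoy receptor that binds IL-1 without signalling, had 744.9, 684.2 and 716.9 normalized counts after IC. After vehicle it had 463.3, 588.5 and 736.8, so vehicle replicate 3 lay within the range of the IC libraries. The log2 difference was 0.27 ± 0.182 (SE) and ranged from 0.11 to 0.45 with each library left out. Per kilobase, Il1r2 amounted to 14.2% to 20.4% of Il1r1 after IC and 12.9% to 16.9% after vehicle, and these ranges overlapped.

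Il33, the only known ligand of ST2, was plentiful in fibroblasts of both groups. Its normalized counts were 2879, 2151 and 2805 after IC and 3110, 3175 and 2843 after vehicle. The IC replicates 1 and 3 lay close to vehicle replicate 3, IC replicate 2 was lowest, and the groups overlapped. The means were 2612 ± 400.8 and 3043 ± 176 (SD, n = 3 each), and the log2 difference was -0.22 ± 0.12 (SE), from -0.30 to -0.10 with each library left out. Within the 3 IC libraries the order of Il33 was the reverse of that of Il1rl1, with IC replicate 1 highest for Il33 and lowest for Il1rl1. Within the vehicle libraries it was not, since vehicle replicate 2 was highest for both.

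Il18, a cytokine made as an inactive precursor that caspase-1 cleaves, had 902.5, 769 and 800.2 normalized counts after IC. After vehicle it had 827.3, 809.5 and 947.2. The groups overlapped, and the log2 difference was -0.06 ± 0.142 (SE), ranging from -0.13 to 0.01 with each library left out.

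Over the whole table, DESeq2 called 419 of 19925 tested genes at an adjusted p under 0.05, or 2.10%, with 1.03% higher and 1.07% lower after IC. Counts of tested genes, here and in the lists, include those without an adjusted p, which DESeq2 could not call. These were 3870 of the 19925. Of the 7 members, 1 was called, Il1rl1, for which the family was chosen. By the quasi-likelihood test of edgeR, which called 0.186% of genes, and by limma-voom, which called 0.311%, 0 members were called, and DESeq2 called 0 members without IC replicate 2. At an unadjusted p under 0.05, 2 of the 7 members passed in DESeq2 and 2 in edgeR, against 9.80% and 9.64% of all genes, and both were higher after IC, against 4.91% in DESeq2. All 3 IC values lay above all 3 vehicle values for 2 members and below them for 0, against 8.09% and 7.67% of all genes, or 15.8% in either direction. The median log2 difference of the members was 0.06. All these counts rest on the contrast by which the family was chosen.

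**Figure D2:**
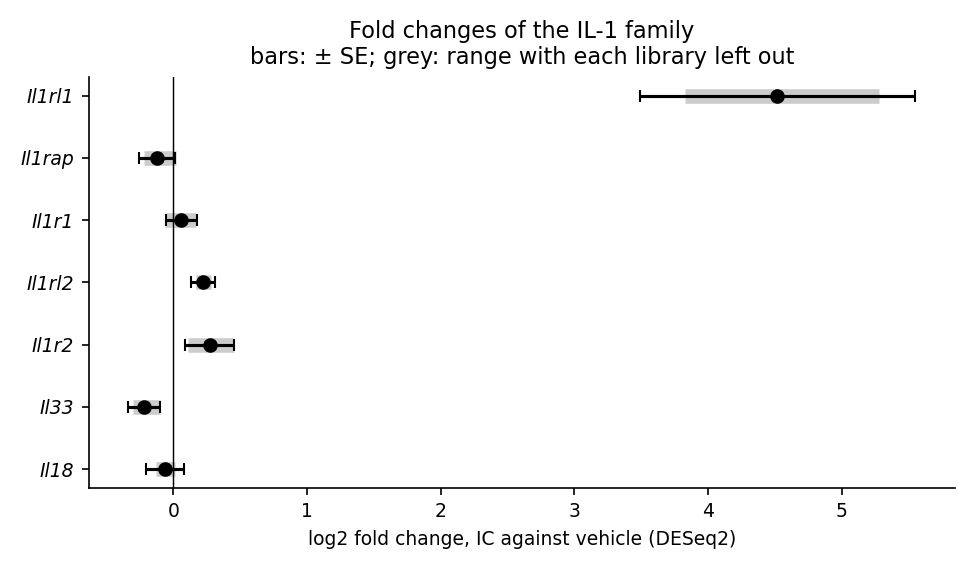
Log2 fold change of each member, IC against vehicle, from DESeq2 (points, with bars of 1 SE) and its range when each of the 6 libraries is left out (grey). Il1rl1 stands at 4.52, and the other 6 lie between -0.22 and 0.27.

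The receptors are neighbours in the genome. Il1r2, Il1r1, Il1rl2, Il1rl1, Il18r1 and Il18rap, the last pair encoding the subunits of the IL-18 receptor, form a run of 6 genes on the plus strand over 477.6 kb of chromosome 1, with 0 other coding genes between them. Il1rl1 ends 136 bases before the start of Il18r1 and begins 62007 bases after the end of Il1rl2. Il18r1 had 11.02, 0 and 16.13 normalized counts after IC and 0, 0 and 32.83 after vehicle. Il18rap had 0, 4.134 and 7.169 after IC and 0, 0 and 23.1 after vehicle, and was not tested because of its low counts. IC replicate 2, the library with the most Il1rl1, had 0 reads of Il18r1. That gene did not exceed 27 raw reads in any library, so a count of 0 says little.

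**Figure D3:**
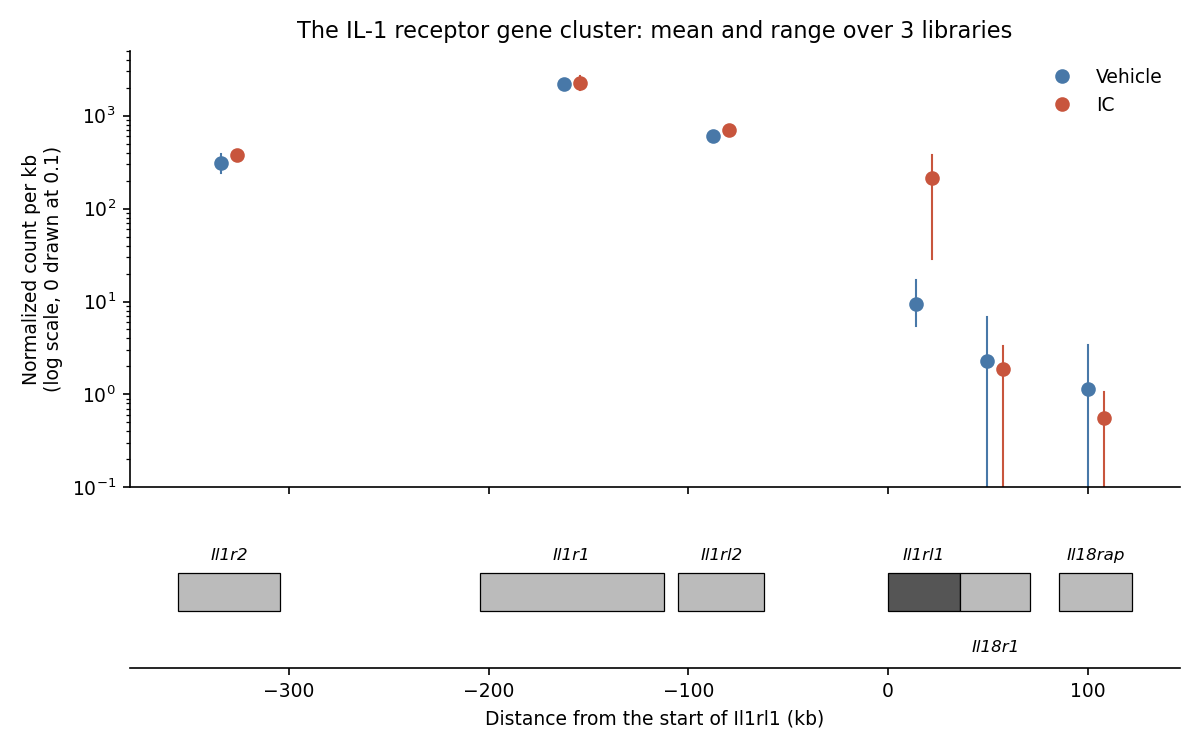
Upper panel: normalized count per kilobase of exon (log scale, 0 drawn at 0.1) of the 6 receptor genes of the cluster, as mean (point) and range (line) over 3 libraries per group. Lower panel: gene extents by distance in kb from the start of Il1rl1 (dark box); Il1rl1 moves from 9.3 to 214 per kilobase, between Il1rl2 at 601 and 702 and Il18r1 at 2.27 and 1.88 (vehicle and IC).

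Per kilobase of exon, the order of levels after vehicle was Il1r1 at 2170, Il33 at 1050, Il18 at 835, Il1rl2 at 601, Il1r2 at 312, Il18bp at 194, Il1rap at 128, Sigirr at 18.4, Il1rl1 at 9.3, Il18r1 at 2.27 and Il18rap at 1.14. Il18bp encodes a soluble inhibitor of IL-18, and Sigirr an inhibitory receptor of the family. In this order Sigirr overlapped with Il1rl1, Il1rl1 with Il18r1 and Il18r1 with Il18rap in their ranges over libraries, and no other neighbours overlapped. After IC the first 5 genes kept their order, and Il1rl1 came next at 214, with libraries from 28.6 to 377. There its range overlapped with those of both neighbours, Il1r2 at 375 and Il18bp at 206, and the other neighbours to overlap were Il33 with Il18 and Il18r1 with Il18rap. Among 19638 genes with a length, Il1rl1 stood at the 5.22, 18.0 and 7.19 percentiles in vehicle replicates 1 to 3. In IC replicates 1, 2 and 3 it stood at the 23.6, 74.0 and 62.6 percentiles. Il18bp shares exonic bases with Numa1 on the other strand.

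The 4 further family genes in the table were Il18r1, Il18rap, Il18bp and Sigirr, out of 15 symbols sought, which included both the older and newer names of the IL-36 genes. DESeq2 called 0 of the 3 tested, of which Il18r1 had no adjusted p and could not be called. By edgeR and limma-voom 0 were called as well, and 0 passed at an unadjusted p under 0.05. Of all genes, these tests called 2.10%, 0.186% and 0.311%, and 9.80% passed at the unadjusted p of DESeq2. Il18bp had a log2 difference of 0.08 ± 0.171 (SE) and Sigirr one of -0.33 ± 0.535 (SE).

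Genes that carry the signal from these receptors were all measured, and DESeq2 called 0 of the 30, against 2.10% of all genes. The same held for edgeR and limma-voom, against 0.186% and 0.311%. With such shares, a list of 30 can hold 0 calls without differing from other genes. At an unadjusted p under 0.05, 5 passed in DESeq2 and 5 in edgeR, against 9.80% and 9.64% of all genes. Those of DESeq2 were all higher after IC, against 4.91% of all genes. Named after their values were seen, they were Nfkbib, Mapkapk2, Myd88, Tnfaip3 and Rela. Of the 30 fold changes 22, or 73.3%, were above 0, with a median of 0.07, against 49.6% of all genes. The highest levels per kilobase belonged to Nfkbia, an inhibitor of NF-kB that NF-kB itself induces, and Myd88, the adaptor of the family. Nfkbia had 27182, 27063 and 29384 normalized counts after IC and 23949, 25845 and 26840 after vehicle, with a log2 difference of 0.13 ± 0.0755 (SE) and an adjusted p of 0.582 in DESeq2. Myd88 had 8142, 9521 and 9298 after IC and 7488, 7503 and 8404 after vehicle, and its log2 difference was 0.21 ± 0.0897 (SE) with an adjusted p of 0.293 in DESeq2. Over the whole list the log2 differences ran from -0.08 to 0.35.

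Genes that process or release IL-1 family cytokines, such as caspases and gasdermins, were called in 0 of 14 tested by DESeq2, edgeR and limma-voom. Elane, among the 14, had no adjusted p in DESeq2 and could not be called by it. The shares of all genes were 2.10%, 0.186% and 0.311%, so 0 calls in so short a list say little. At an unadjusted p under 0.05, 2 passed in DESeq2 and 2 in edgeR, against 9.80% and 9.64% of all genes. In DESeq2 these were Casp4, an inflammatory caspase, and Gsdmd, whose cleaved product forms pores through which IL-1 cytokines leave the cell, the latter named after its values were seen. Casp4 had 6222, 6882 and 5248 normalized counts after IC and 5588, 4492 and 4534 after vehicle, with a log2 difference of 0.33 ± 0.116 (SE) and an adjusted p of 0.12 in DESeq2. Gsdmd had 2078, 2286 and 2380 after IC and 1687, 1537 and 1966 after vehicle, with a log2 difference of 0.38 ± 0.119 (SE) and an adjusted p of 0.055. DESeq2 called Casp4 without IC replicate 3 or without vehicle replicate 1, and Gsdmd without vehicle replicate 3. Capn2, a calpain protease and the gene of highest level per kilobase in the list, had a log2 difference of 0.15 ± 0.09 (SE).

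Genes that fibroblasts are known to induce in response to IL-1 included several that rose. Of 26 tested, DESeq2 called 6, against 2.10% of all genes, with 5 higher and 1 lower after IC. The list was drawn up with results of these libraries known, so the count is a description. Of the 26 fold changes 23, or 88.5%, were above 0, with a median of 0.33, against 49.6% of all genes. At an unadjusted p under 0.05, 17 passed, against 9.80% of all genes. All 3 IC values lay above the vehicle values for 12 of them, against 8.09% of all genes. edgeR called 1, Has1, as did limma-voom, against 0.186% and 0.311% of all genes.

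Has1, a hyaluronan synthase, had 38114, 38255 and 40155 normalized counts after IC and 28346, 23572 and 25575 after vehicle. The groups did not overlap, and the log2 difference was 0.59 ± 0.0814 (SE) with an adjusted p of 6.93e-10 in DESeq2 and 0.0228 in edgeR. Il6, an inflammatory cytokine, had 9669, 8776 and 12711 after IC and 8101, 6311 and 6940 after vehicle, with a log2 difference of 0.55 ± 0.127 (SE) and a DESeq2 adjusted p of 0.00183. Il6 was called in 3 of the 6 fits with 1 library left out, and not without IC replicate 3, vehicle replicate 2 or vehicle replicate 3. The other 5 genes were called in all 6 of these fits.

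Cxcl1, a chemokine that attracts neutrophils, had 32893, 33560 and 42865 normalized counts after IC and 26581, 26133 and 27442 after vehicle. Its log2 difference was 0.45 ± 0.0976 (SE), with an adjusted p of 6.64e-04 in DESeq2. Ptgs2, the inducible enzyme of prostaglandin synthesis, had 15630, 14674 and 16064 after IC and 11244, 12451 and 12501 after vehicle. Its log2 difference was 0.36 ± 0.0782 (SE), with an adjusted p of 7.08e-04 in DESeq2. Tnfaip2, a gene induced by TNF, had 8750, 9322 and 8910 after IC and 6544, 7207 and 7216 after vehicle. Its log2 difference was 0.36 ± 0.0791 (SE), with an adjusted p of 6.22e-04 in DESeq2. Vcam1, an adhesion molecule for leukocytes, went the other way, with 4078, 3899 and 4046 after IC and 4738, 5900 and 5500 after vehicle. Its log2 difference was -0.42 ± 0.0974 (SE), with an adjusted p of 0.00146 in DESeq2. C3, the complement component and the gene of highest level per kilobase in the list, had a log2 difference of -0.07 ± 0.113 (SE) and was not called.

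Within the IC group, Tnfaip2 had the same order of libraries as Il1rl1, over a much narrower range, and the other 5 called genes had other orders. IC replicate 1, which had 197.2 normalized counts of Il1rl1, had 38114 of Has1 and 15630 of Ptgs2, close to the 38255 and 14674 of IC replicate 2, which had 2597 of Il1rl1. Cxcl5, a neutrophil chemokine named after its values were seen, also differed widely within the IC group, with 37.47, 145.7 and 1073 normalized counts against 50.84, 30.23 and 58.36 after vehicle. Its highest library was IC replicate 3, not the IC replicate 2 of Il1rl1, and DESeq2 gave it an adjusted p of 0.182.

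**Figure D4:**
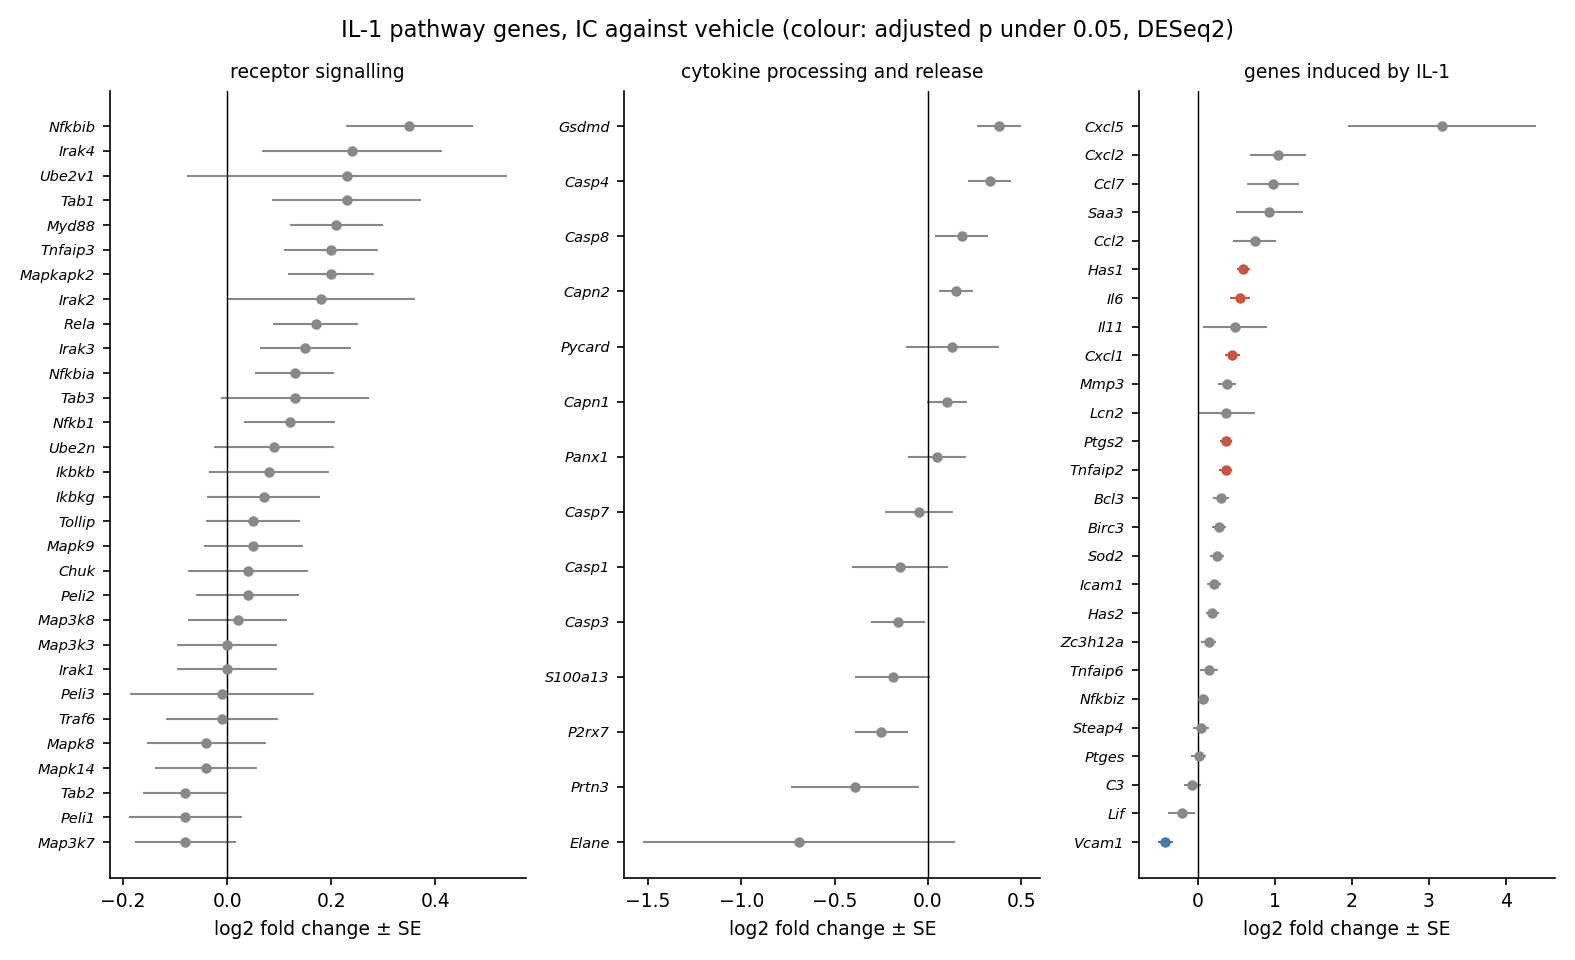
Log2 fold change with 1 SE, IC against vehicle, of the tested genes for receptor signalling (30), cytokine processing and release (14) and genes induced by IL-1 in fibroblasts (26), each panel with its own horizontal scale. Red and blue mark genes with an adjusted p under 0.05 in DESeq2; 5 higher and 1 lower genes are in the panel of induced genes and 0 in the others.

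Type 2 genes that IL-33 is known to raise through ST2 in immune cells were sparse. Of 13 sought, 6 were in the table and 1 had enough counts for a test. This was Ccl11, the eosinophil chemokine eotaxin, with 6664, 5027 and 7336 normalized counts after IC and 6698, 7169 and 6743 after vehicle. Its log2 difference was -0.12 ± 0.118 (SE), with an adjusted p of 0.849 in DESeq2, and its lowest library was IC replicate 2, that with the most Il1rl1. Retnla, next to Ccl11 in mean level per kilobase over both groups, had 4.408, 1.034 and 0 normalized counts after IC. After vehicle it had 9.839, 18.89 and 3.648. Areg, an epidermal growth factor family ligand named after its values were seen, had 6.612, 21.71 and 13.44 after IC and 4.1, 0 and 7.295 after vehicle. The groups overlapped for both Retnla and Areg. Both were too low to be tested, and their differences cannot be read as changes.

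Likeness to Il1rl1 was measured as the Pearson correlation of log2(normalized count + 1) over the 6 libraries, among the same 13435 genes. The 5 most alike were Lhfpl2 at 0.993, Tnfrsf10b at 0.991, Riok3 at 0.989, Sh3rf3 at 0.984 and Gch1 at 0.98. Tnfrsf10b encodes a death receptor for TRAIL, and Gch1 the first enzyme of tetrahydrobiopterin synthesis. All 5 had IC replicates 2 and 3 above IC replicate 1, which follows from how they were chosen, but over a narrow range. For example, Lhfpl2 had 2225, 2809 and 2803 normalized counts after IC and 1874, 2094 and 1789 after vehicle. Gch1 had 716.3, 937.5 and 969.6 after IC and 568.2, 631.9 and 611.6 after vehicle. After the mean of each group was subtracted, the 5 most alike were Dcaf1 at 0.997, Zfand6 at 0.995, Bard1 and Rrp9 at 0.994 each and Nudt4 at 0.991, all different from the first 5. These correlations rest on 6 libraries in 2 groups and were not tested.

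**Figure D5:**
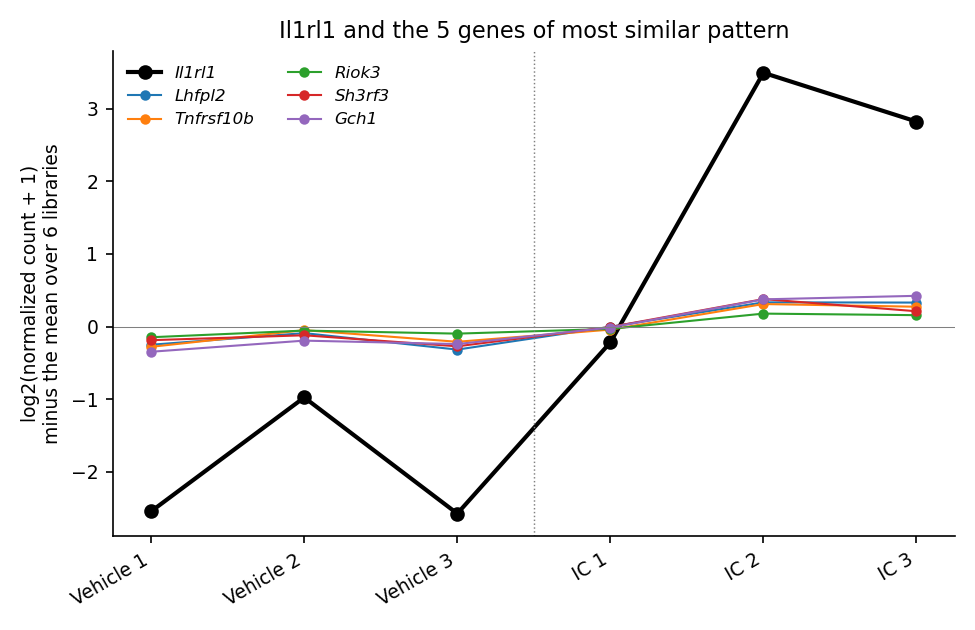
Log2(normalized count + 1) minus the mean over the 6 libraries for Il1rl1 (black) and the 5 genes with the highest Pearson correlation with it, with the vehicle libraries left and the IC libraries right of the dotted line. The lines connect the libraries of a gene and imply no order; the 5 genes share the pattern but move much less than Il1rl1.

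Other cells that carry ST2 were looked for by their markers. The mast cell and basophil list held 10.2 to 11.2 summed CPM after IC and 12.3 to 18.3 after vehicle. Of its 13 genes 6 were in the table, and Cpa3, Fcer1a, Ms4a2, Tpsab1, Mcpt8, Prss34 and Cd200r3 had no row. Most of the sum came from Kit and Gata2, which other cells also express. Kit had 207.2 to 273.9 normalized counts after IC and 369.3 to 423.9 after vehicle, without overlap. Gata2 had 236.7 to 243.7 after IC and 214.4 to 408.5 after vehicle, with overlap. Mcpt4 and Cma1 did not exceed 11.34 in any library. Of the 4 genes tested, 1 fold was above 0 and 3 below, and DESeq2 called 0. Tpsb2 and Hdc, among the 4, had no adjusted p and could not be called. The list for type 2 lymphoid and regulatory T cells had 6 of 10 genes in the table, without Cd3e and Il7r, and held 16.7 to 22.3 after IC and 12.5 to 22.7 after vehicle, so the groups overlapped. Most of this sum was Ikzf2, at means of 571.4 and 472.8 normalized counts after IC and vehicle, and Gata3, at 279.8 and 281.3. Foxp3, a marker of regulatory T cells, did not exceed 12.16 normalized counts in any library.

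Macrophage markers, 7 of 13 in the table and without Ptprc, Adgre1 and C1qa, held 31.7 to 49.0 CPM after IC and 39.0 to 50.6 after vehicle. Most of this sum was Cd68, at means of 1308 and 1243 normalized counts after IC and vehicle, and Lyve1, at 633.6 and 753.6. Csf1r had means of only 55.1 and 49.26, and Cx3cr1 did not exceed 25.84 in any library. Of 7 neutrophil markers only S100a8 was in the table, at 0.111 to 0.261 after IC and 0 after vehicle. These were 6, 12 and 6 raw reads in IC replicates 1 to 3, near the floor. All genes in the table had counts above 0 in at least 3 libraries. S100a8 is thus in it only through the IC group, and the difference cannot be read as a change. Endothelial markers, all 11 in the table, held 240 to 305 after IC and 296 to 341 after vehicle. The largest part was Tek, at means of 6330 and 6639 normalized counts. Of the 11 fold changes 8 were below 0, and DESeq2 called 3, against 2.10% of all genes. The 3 were named after their values were seen, and all were lower after IC. They were Kdr at -0.70 ± 0.132, Cdh5 at -0.74 ± 0.23 and Cldn5 at -0.62 ± 0.192 on the log2 scale (SE). In the same list but in the other direction, and not called, were Ackr1, Selp and Sele. Ackr1 had 1732, 1802 and 2208 normalized counts after IC and 1661, 1431 and 1451 after vehicle. Its groups did not overlap, and its log2 difference was 0.34 ± 0.127 (SE). The adhesion molecule Selp had 74.93, 225.3 and 0 normalized counts after IC and 7.38, 19.84 and 12.16 after vehicle. Sele had 105.8, 278 and 35.84 after IC and 20.5, 108.6 and 23.1 after vehicle. Selp and Sele were highest in IC replicate 2, as was Il1rl1, but IC replicate 3, which had 1630 normalized counts of Il1rl1, had 0 of Selp.

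Markers of the tissue around the joint were also present. Muscle satellite cell markers, all 7 in the table, held 47.7 to 80.8 CPM after IC and 102 to 152 after vehicle, and skeletal muscle markers, all 11 in the table, 14.7 to 29.2 and 25.6 to 62.7. The sum of the satellite cell markers was thus lower in every IC library than in any vehicle library. Its largest part was Chodl, at means of 1624 normalized counts after IC and 2410 after vehicle. Msc, in the same list, overlapped between the groups. All 7 satellite cell folds and all 10 tested skeletal muscle folds were below 0, with medians of -1.62 and -1.96 on the log2 scale. DESeq2 called 2 and 3 of them, against 2.10% of all genes. Named after their values were seen, these were Myf5 and Chodl, and Myh1, Actn3 and Myl1. Cartilage markers, all 8 in the table, held 747 to 841 and 465 to 698, with every IC library higher. Most of this sum was Comp, a matrix protein also made by fibroblasts, at a mean of 32217 normalized counts after IC and 24643 after vehicle. Among the 6 tested cartilage genes 3 folds were above 0 and 3 below, and DESeq2 called 1, the proteoglycan gene Acan, higher by 1.34 ± 0.321 (SE) on the log2 scale. Col2a1, the main cartilage collagen, was below vehicle in every IC library, with a log2 difference of -0.75 ± 0.261 (SE), and was not called. Keratinocyte markers, 5 of 6 in the table, held 46.3 to 58.8 and 16.9 to 86.8, and adipocyte markers, 5 of 6 in the table, 1.91 to 3.85 and 2.09 to 4.57. The part of these cells in the values of Il1rl1 and the other members was not tested.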

How the data were processed

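Raw counts of reads per gene were deposited by the authors. Per the labels and the study's methods, reads were trimmed with Trim Galore, aligned to mm10 with HISAT2 and counted with featureCounts. Tool versions, annotation and strand setting are not given in the sources used here, and the labels and methods name different total RNA library kits. The methods also mention batch removal with sva without details, and no batch is labelled. The 6 per-sample files were identical to the columns of the combined table, whose genes all had counts above 0 in at least 3 libraries. Reads were counted per gene, so isoforms and paralogous or overlapping genes are uncertain.

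Groups and replicate numbers came from the sample labels. The 19925 genes that reached 10 counts in 3 or more libraries were tested with the Wald test of DESeq2 1.42.0 (R 4.3.3). Treatment was the only term, with default size factors and unshrunken fold changes. Benjamini-Hochberg adjustment, at a threshold of 0.05, covered the genes that the default filters of DESeq2 kept. DESeq2 gave no adjusted p to 3870 genes, which it could not call but which count among the 19925 in the share of 2.10%. For edgeR and limma-voom the adjustment covered all genes tested. Alternatives were edgeR 4.0.16, limma-voom (limma 3.58.1), TMM scaling, no count filter, a replicate block, 1 surrogate variable (sva 3.50.0) and each library left out in turn. Gene positions and exonic lengths came from GENCODE M21 (GRCm38) for 23899 symbols, and promoters from RefSeq.

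The members and lists were chosen with earlier results of these data known. Named genes were the members, other family genes in the table, called genes of each pathway list with its 2 genes of highest level per length, and the 5 genes most like Il1rl1 by each of 2 correlations. Il1a, Il1b and Il1rn were not analysed here. Protein sequences were not used here.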

Additional observations from a re-analysis of the deposited data

How the results depend on the processing

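DESeq2 called 419 genes, edgeR 37 and limma-voom 62, and leaving out 1 library gave 281 to 677, the highest without vehicle replicate 1. Of the members, DESeq2 called 1, edgeR 0 and limma-voom 0, and leaving out 1 library gave 0 to 1, the lowest without IC replicate 2. Of the genes induced by IL-1, DESeq2 called 6, edgeR 1 and limma-voom 1, and leaving out 1 library gave 5 to 11, the highest without IC replicate 1. Of the processing genes, leaving out 1 library gave 0 to 1. The causes were not tested. Receptor signalling genes stayed at 0 under all 12 alternatives. The SD between replicates is a wide yardstick, since leaving out 1 of 3 libraries can hardly move a fold change that far. For Il1rl1 this SD was 1.5 on the log2 scale. All 84 alternative fold changes of members moved by less than the SD of their gene, which thus says little about stability. In 4 of them the sign changed, for members that were not called and lay near 0: Il1rap went from -0.12 to 0.02 without vehicle replicate 2, Il1r1 from 0.06 to -0.06 without IC replicate 3 and to -0.03 without vehicle replicate 1, and Il18 from -0.06 to 0.01 without vehicle replicate 3. With the longest transcript as the length, 7 of 11 genes kept their place in the order of levels after vehicle and 5 after IC. By Spearman correlation, 2 of the 5 genes most like Il1rl1, Lhfpl2 and Sh3rf3, were among 32 genes tied at 1. Tnfrsf10b and Riok3 ranked 112 and Gch1 276 of 13435 genes, so the ranks of 6 libraries do not single these genes out.

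Replicate numbers were shared by the groups, and whether they pair the libraries is not stated. Deviations of libraries of the same number correlated at -0.0918, -0.164 and 0.025 over 13435 genes. These values show no pairing by number but cannot settle whether libraries were prepared together. A replicate block gave 320 calls in DESeq2, of which 137 were higher and 183 lower, with 1 member, 0 receptor signalling genes, 0 processing genes and 7 genes induced by IL-1 among them. With 3 libraries per group, differences smaller than the spread of a gene between libraries could not be resolved, and this spread was widest for Il1rl1 among the members.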
